A study of Mus musculus with 55 samples.

Results

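The nuclear-encoded subunits of respiratory complexes II, III and IV and of the ATP synthase (complex V) were followed in the gonadal white fat of mice that carry an expanded CAG repeat in the huntingtin gene Htt. The genes were chosen by name: Sdha to Sdhd, Cyc1, Cycs and every protein-coding symbol that begins with Uqcr, Cox4 to Cox8 or Atp5. This gave 49 of the 43432 genes in the table, of which 4 belong to complex II, 10 to complex III (with Cyc1 and Cycs), 18 to complex IV and 17 to complex V. All 49 passed the filter on low counts. Cox7b2, which was at 0 in 38 of the 55 libraries, and Cox8c, at 0 in 31, passed through male libraries.

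Messenger RNA was read from 55 libraries of white fat taken around the gonad of 6-month-old C57BL/6 mice of both sexes. The knock-in animals were heterozygous for an Htt allele named for its repeat length, and were labelled Q20, Q80, Q92, Q111, Q140 or Q175, with 4 females and 4 males each. Wild-type (WT) animals, 3 females and 4 males, carry no knock-in allele, and Q20 carries the knock-in with a short repeat. Each expanded genotype was housed with its own genotype, whereas WT and Q20 animals shared cages, so housing and genotype cannot be told apart in Q175 against WT or against Q20. The labels number replicates within a group and also carry a code for each library. They do not say whether that code names an animal, and p-values measure the spread between these libraries.

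Complex II oxidises succinate and passes electrons to ubiquinone, complex III moves them on to cytochrome c, complex IV hands them to oxygen, and complex V uses the resulting proton gradient to make ATP. Complexes III, IV and V are assembled from subunits of both genomes, while every subunit of complex II is nuclear. White adipocytes hold fewer mitochondria than brown ones, yet use them for fat synthesis and for the turnover of stored lipid. Several complex IV subunits exist as isoforms known from, but not confined to, particular tissues. Among them are Cox6a2, Cox7a1 and Cox8b in heart and skeletal muscle, Cox4i2 in lung, and Cox6b2, Cox7b2 and Cox8c in testis.

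Total counts per library lay between 35094442 and 51363637. Levels are CPM, that is counts scaled to library size, or the deposited FPKM where genes are compared with each other, since FPKM is per transcript length. Tests are edgeR's quasi-likelihood tests over 21113 genes, and genes with an adjusted p under 0.05 (Benjamini-Hochberg, over all of them) are written as called. Libraries differed in RNA of other tissues: 14 male libraries held at least 100 CPM of epididymis and testis markers, and some libraries of both sexes held skeletal muscle markers. The labelled tissue fits its defining genes, since Adipoq, the fat hormone adiponectin, averaged 2712 ± 631 CPM in Q175 (SD, n = 8) and 3405 ± 635 CPM in WT (SD, n = 7). Htt averaged 57.4 ± 2.74 CPM in Q175 libraries and 66.1 ± 9.08 CPM in WT libraries, which does not test the repeat length. The libraries Q140 female 1 and Q140 male 4 expressed the sex-linked genes of the sex opposite to their label.

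Most subunits were abundant. Per length, the median FPKM of the members was 142 in complex II, 166 in complex III, 144 in complex IV and 230 in complex V. The catalytic β subunit of ATP synthase, Atp5b, led all members at 796 FPKM, ahead of Cox4i1 at 647 FPKM and Cox6b1 at 531 FPKM. Uqcrh, the hinge protein of complex III, led its complex at 378 FPKM, and the flavoprotein Sdha led complex II at 200 FPKM. The lowest members of each complex were Sdhc at 95.7 FPKM, Cycs at 21.6 FPKM, Cox7b2 at 0 FPKM and Atp5s at 7.1 FPKM. Within complex IV the broadly expressed isoforms stood far above the restricted ones, with Cox8a at 521 FPKM, Cox8b at 26.1 FPKM, Cox7a1 at 5.5 FPKM, Cox6b2 at 4.81 FPKM, Cox4i2 at 3.81 FPKM and Cox6a2 at 0.147 FPKM.

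In Q175 fat, subunits of all 4 complexes were lower than in WT fat. The members summed to 7604 ± 911 CPM in Q175 (SD, n = 8) and 10519 ± 1630 CPM in WT (SD, n = 7). Every Q175 library, between 6375 and 8703 CPM, lay below every WT library, between 9035 and 13378 CPM. Of the 49 members, 27 were called lower and 0 higher, where 7.1% of all tested genes were called lower and 3.34% higher. The median log2 difference of the members was -0.52, with 47 of 49 below 0, and the median over all tested genes was 0.009. By limma on log2(FPKM + 0.1), 20 members were called lower and 0 higher, and over all genes the split turned round, with 1.58% called lower and 9.6% higher. For 16 members every Q175 library lay below every WT library, which held for 2.84% of all tested genes.

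**Figure D1:**
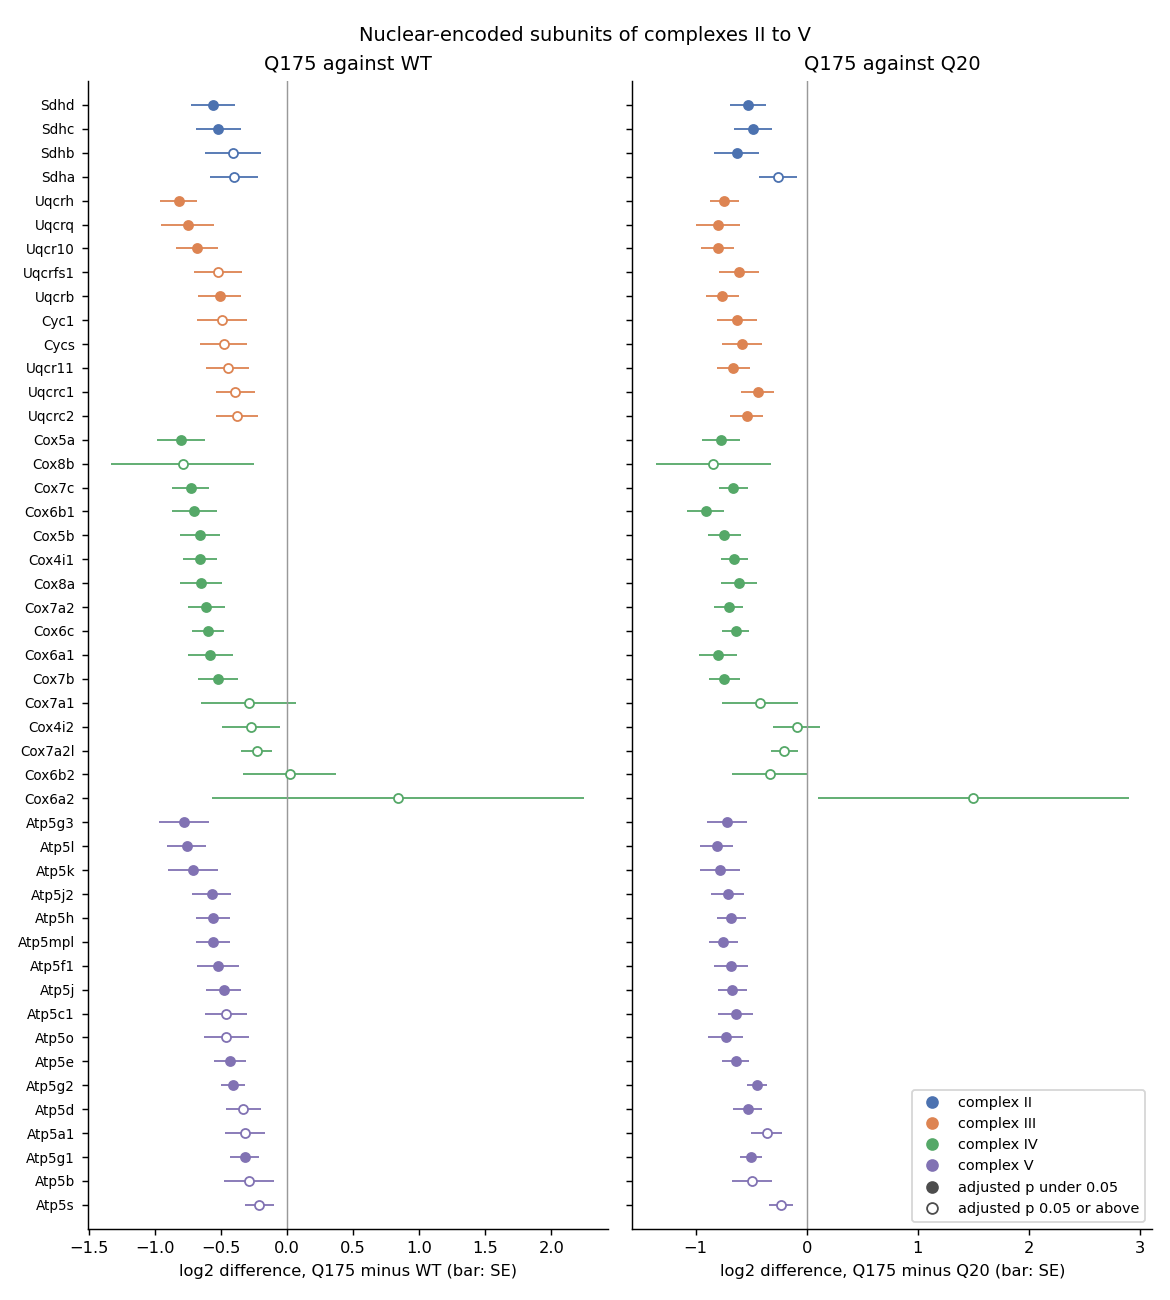
Log2 difference (x axis) of the members (y axis, coloured by complex) in Q175 against WT on the left and Q175 against Q20 on the right, with bars for the SE and filled points for an adjusted p under 0.05; Cox7b2 and Cox8c, at 0 in most libraries, are not drawn. In complexes II to V the filled points all lie left of 0, and the restricted isoforms Cox6a2, Cox6b2, Cox7a1 and Cox4i2 are open in both panels.

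Complex II had 2 of 4 members called, and both calls were lost under some of the 28 alternatives and left-out libraries. Sdhd, a membrane anchor of the complex, had 103, 143 and 163 CPM in Q175 libraries and 157, 178 and 259 CPM in WT libraries (lowest, median and highest of 8 and of 7 libraries). The groups overlapped for Sdhd at the margin, where the highest Q175 library exceeded the lowest WT library, and the log2 difference was -0.56 ± 0.17 (SE, adjusted p = 0.0228, lost in 10 of 28). Sdhc, the other anchor, had 105, 136 and 153 CPM in Q175 and 157, 187 and 238 CPM in WT without overlap, at a log2 difference of -0.52 ± 0.17 (adjusted p = 0.0418, lost in 20 of 28). The catalytic pair was not called: Sdha averaged 509 ± 81.1 CPM in Q175 and 661 ± 135 CPM in WT (adjusted p = 0.14), and the iron-sulfur subunit Sdhb differed by -0.41 on the log2 scale (adjusted p = 0.227).

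Complex III had 4 of 10 members called, all of them small accessory subunits. Whether accessory and core or catalytic subunits differ in their change was not tested, in this complex or in the others. Uqcrh had 111, 143 and 156 CPM in Q175 libraries and 160, 228 and 302 CPM in WT libraries. No Q175 library reached a WT library, and the difference was the largest among the called members, at -0.82 ± 0.14 on the log2 scale or 0.565-fold (adjusted p = 0.000412). Uqcr10, which sits next to cytochrome c1, had 60.1, 77.4 and 89.5 CPM in Q175 and 86.4, 114 and 145 CPM in WT, at a log2 difference of -0.68 ± 0.16 (adjusted p = 0.00412). Uqcrq, the ubiquinone-binding small subunit, had 65.0, 82.6 and 93.2 CPM in Q175 and 91.3, 136 and 153 CPM in WT, at -0.75 ± 0.20 (adjusted p = 0.0128). In both of these genes the highest Q175 values overlapped the lowest WT value. The fourth, Uqcrb, differed by -0.51 (adjusted p = 0.0316). The core proteins Uqcrc1 and Uqcrc2, the Rieske protein Uqcrfs1, and the cytochromes Cyc1 and Cycs were not called, with differences of -0.39, -0.38, -0.52, -0.49 and -0.48 on the log2 scale. Nor was the small subunit Uqcr11 (-0.45, adjusted p = 0.0624), although its 8 Q175 libraries all lay below its 7 WT libraries.

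Complex IV had 10 of 18 members called, and these were the broadly expressed ones. Cox4i1, the largest nuclear subunit and a contact point of the catalytic core, had 271, 356 and 377 CPM in Q175 libraries and 399, 513 and 640 CPM in WT libraries. The groups did not overlap, and the log2 difference was -0.66 ± 0.13 (adjusted p = 0.00134). Cox7c, a small membrane subunit, had 93.8, 117 and 128 CPM in Q175 and 123, 181 and 234 CPM in WT, at -0.73 ± 0.14 (adjusted p = 0.000975). Cox6c, another small subunit, had 136, 166 and 180 CPM in Q175 and 176, 233 and 294 CPM in WT, at -0.60 ± 0.12 (adjusted p = 0.00156). For Cox7c and Cox6c the lowest WT library fell inside the Q175 range. The called members of complex IV fell by 0.52 (Cox7b) to 0.80 (Cox5a) on the log2 scale.

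Complex V had 11 of 17 members called. Atp5l, subunit g of the membrane part, had 119, 145 and 155 CPM in Q175 libraries and 176, 236 and 291 CPM in WT libraries. The groups did not overlap, and the log2 difference was -0.76 ± 0.15 (adjusted p = 0.00164). Atp5mpl, the small proteolipid of the synthase, had 35.9, 40.1 and 46.2 CPM in Q175 and 43.7, 62.0 and 72.3 CPM in WT, with an overlap at the margin, at -0.56 ± 0.13 (adjusted p = 0.00461). The catalytic head was not called: Atp5b averaged 1264 ± 172 CPM in Q175 and 1523 ± 332 CPM in WT (log2 difference -0.29 ± 0.19, adjusted p = 0.351), and Atp5a1, the α subunit, averaged 813 ± 104 CPM in Q175 and 1003 ± 235 CPM in WT (-0.32 ± 0.15, adjusted p = 0.157). Other head and stalk subunits that were not called were Atp5c1, Atp5d and Atp5o, at -0.46, -0.33 and -0.46. The stalk subunits Atp5e, Atp5f1, Atp5h and Atp5j were among the 11 called members.

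The 3 genes for the rotor ring of the synthase, Atp5g1, Atp5g2 and Atp5g3, encode the same mature peptide behind different import signals. Atp5g3, the most abundant of them, had 192, 242 and 277 CPM in Q175 libraries and 280, 409 and 508 CPM in WT libraries, at a log2 difference of -0.78 ± 0.19 (adjusted p = 0.00575). Atp5g2 had 80.7, 92.2 and 100 CPM in Q175 and 102, 110 and 144 CPM in WT, at -0.41 ± 0.09 (adjusted p = 0.00394). Neither gene overlapped between the groups. Atp5g1 had 40.7, 44.7 and 58.8 CPM in Q175 and 44.0, 59.0 and 73.4 CPM in WT, with wide overlap, at -0.32 ± 0.11 (adjusted p = 0.0457), a call that 21 of the 28 alternatives and left-out libraries ended. The difference between the 3 genes was not tested.

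**Figure D2:**
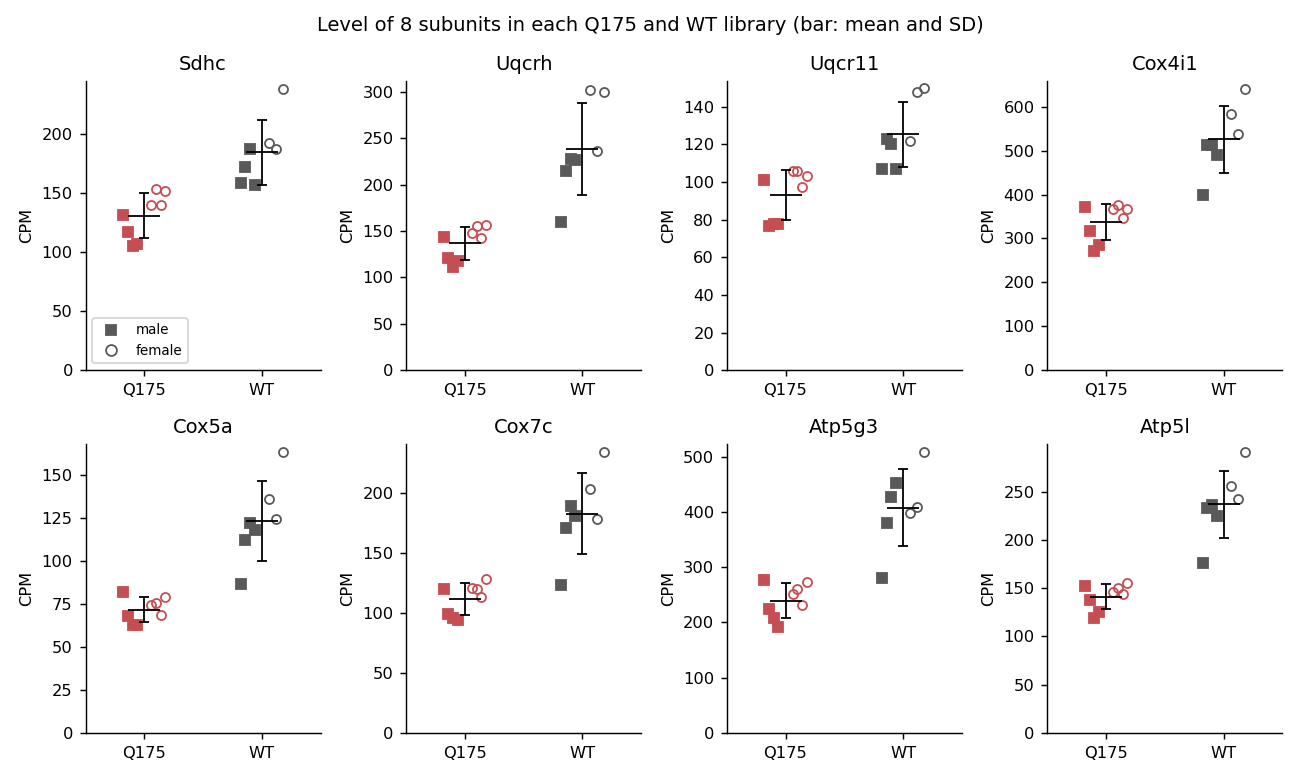
Level in CPM (y axis, from 0) of 8 subunits in each Q175 and WT library (x axis), with squares for males, circles for females and bars for the mean and SD of a genotype. In 7 panels no Q175 library reaches a WT library; for Cox7c the lowest WT library, at 123 CPM, lies inside the Q175 range.

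Several complex IV subunits come as a broad and a restricted isoform. The broadly expressed Cox6a1, Cox6b1, Cox7a2, Cox7b and Cox8a were called lower in Q175, at log2 differences of -0.58, -0.70, -0.61, -0.52 and -0.65, of which the call of Cox6a1 was lost in 12 of 28 settings. Their restricted partners were low and not called. Cox8b averaged 7.2 ± 5.12 CPM in Q175 and 11.0 ± 7.96 CPM in WT (adjusted p = 0.385), Cox4i2 averaged 2.6 ± 0.358 CPM in Q175 and 3.19 ± 0.78 CPM in WT (adjusted p = 0.476), and Cox7a1 differed by -0.29 ± 0.36 (adjusted p = 0.673). Cox7a2l, which helps to join complexes III and IV and has a paralog's name rather than a core subunit's role, was at 125 ± 9.6 CPM in Q175 and 146 ± 20.1 CPM in WT (adjusted p = 0.222). Cox6a2 and Cox6b2 had the opposite sign to the other members, at 0.84 ± 1.41 (adjusted p = 0.78) and 0.02 ± 0.35. Whether restricted and broad isoforms differ in their change was not tested, and paralogs this alike can share reads.

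Both sexes showed the lower levels. In females the members summed to 8288 ± 425 CPM in Q175 (SD, n = 4) and 12078 ± 1214 CPM in WT (SD, n = 3). In males they summed to 6919 ± 710 CPM in Q175 (SD, n = 4) and 9349 ± 278 CPM in WT (SD, n = 4). Within females, every Q175 library lay below every WT library for 39 members, where 13.1% of all tested genes did so. Within males this held for 34 members, where 11.2% of all tested genes did so. Tested within a sex, edgeR called 1 member lower in females (0.0805% of all genes) and 2 in males (1.48% of all genes). Uqcrh was called in both, with 142 to 156 CPM in Q175 females and 236 to 302 CPM in WT females (log2 difference -0.89 ± 0.20, adjusted p = 0.0426), and with 111 to 144 CPM in Q175 males and 160 to 228 CPM in WT males (-0.75 ± 0.19, adjusted p = 0.0347). Cox7c was the other call in males (-0.70 ± 0.19, adjusted p = 0.0457). With 1 library of either genotype left out, the count in females was 1 without WT female 2 and 0 without any other, and the count in males was 8 without WT male 1, where 4.04% of all genes were called lower, and 0 without any other. DESeq2 called 10 members in females, with 0.901% of all genes lower, and 8 in males, with 3.56% of all genes lower. The difference between the sexes in the Q175 effect was called for 0 members by edgeR and by DESeq2. Over all genes, edgeR called 0.0284% for that difference, with 499 genes at an unadjusted p under 0.05, and DESeq2 called 99 genes.

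The count of calls in Q175 against WT moved with the model, for the members as for all genes. With the lane code of the labels as a factor, 8 of the 27 members were called, and 1.44% of all genes were called lower. Some knock-in libraries share both this code and the index, the tag that tells libraries of a lane apart. The same code therefore covers different lanes, and this fit does not adjust for physical lanes as such. With the libraries of Q175 and WT alone 42 members were called, and 16.5% of all genes were called lower. Among these 42 were the core and catalytic subunits Sdha, Sdhb, Uqcrc1, Uqcrc2, Uqcrfs1, Cyc1, Atp5a1 and Atp5b, and also Cycs. Of the 27, 7 were called under every alternative and with every library left out: Uqcrh, Cox4i1, Cox5a, Cox6c, Cox7a2, Cox7c and Atp5l. All 27 had a negative difference in each of these 29 fits.

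Transcript length moved with the result. The members are short, with a median length of 719 nt implied by the deposited counts and FPKM, against 2264 nt over all tested genes, and 34 of the 49 are under 1000 nt. In Q175 against WT, members under 1000 nt had a median log2 difference of -0.58, and all tested genes under 1000 nt had -0.22. Members of 1000 nt or more had a median of -0.41, and all tested genes of that length had 0.04. With the length trend over all genes removed, 15 members were called lower, as were 5.12% of all genes. Its part in the result beyond that was not tested.

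Markers of other cells also moved between these genotypes. Of 12 macrophage markers 4 were called higher in Q175, with Csf1r, the receptor for a macrophage growth factor, at a log2 difference of 0.83 ± 0.20 (adjusted p = 0.00503). The macrophage markers summed to 1337 to 1487 CPM in Q175 females and 530 to 955 CPM in WT females, and to 1255 to 1465 CPM in Q175 males and 713 to 1545 CPM in WT males. Of 10 stromal progenitor markers 5 were called higher, among them Pi16 at 1.32 ± 0.30 (adjusted p = 0.00435), and the list summed to 1009 to 1095 CPM in Q175 females and 412 to 686 CPM in WT females, and to 818 to 898 CPM in Q175 males and 458 to 937 CPM in WT males. Of 10 adipocyte markers edgeR called 0, with a median of -0.29, and they summed to 31452 to 34245 CPM in Q175 females and 32110 to 46006 CPM in WT females. In males the adipocyte markers summed to 20920 to 28470 CPM in Q175 and 34348 to 39908 CPM in WT, without overlap. For the markers of epididymis and testis the 4 Q175 males lay between 513 and 2991 CPM, and the 4 WT males between 0.893 and 29.0 CPM. Without the 14 libraries high in these markers, which leaves Q175 females alone in that genotype, 26 members were called in an additive fit of genotype and sex, in which 5.59% of all genes were called lower. Of 6 erythroid markers 0 were called over both sexes, but they separated the males, at 815 to 989 CPM in Q175 males and 1582 to 2452 CPM in WT males (median log2 difference -1.18), and not the females, at 436 to 1005 CPM in Q175 and 494 to 822 CPM in WT. Of 8 exocrine pancreas markers 6 were called lower in males, where WT male 3 held 606 CPM and the other males of both genotypes 7.44 to 13.3 CPM. The part of the other cell types in the result was not tested, and in bulk tissue fewer cells of a type and less RNA per cell cannot be told apart.

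Promoter windows were read for 35 of the 49 members from RefSeq on GRCm38.p6, each of 250 bases before and 50 after the start. They were searched on both strands for the core site of NRF1, for an ETS motif bound by GABP (CCGGAAGT, or ACTTCCGG on the other strand) and for a YY1 motif (AAGATGGC, or GCCATCTT). The NRF1 core, a palindrome of 10 letters that stands in capitals in Atp5g2 and Atp5k, was in 11.4% of the members' windows and 0.971% of all 32851 windows. The ETS motif was in 11.4% of the members' windows and 3.89% of all windows. The YY1 motif was in 2.86% of the members' windows and 2.75% of all windows. At least 1 of the motifs was in 9 of the 35 windows (25.7%) and in 7.32% of all windows. The 120 bases from 110 before to 10 after the start are shown for 6 members with a match, whose libraries did not overlap between Q175 and WT, with the match in capitals. Atp5g3, a member without overlap, and Cox8b, a restricted isoform that was not called, are shown beside them as windows with no match. A match is a description of letters and not of binding.
Uqcrh, chr4:116075061-116075180, minus strand: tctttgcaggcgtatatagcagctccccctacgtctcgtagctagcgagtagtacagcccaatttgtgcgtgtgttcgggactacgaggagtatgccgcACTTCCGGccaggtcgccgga
Uqcr11, chr10:80406812-80406931, minus strand: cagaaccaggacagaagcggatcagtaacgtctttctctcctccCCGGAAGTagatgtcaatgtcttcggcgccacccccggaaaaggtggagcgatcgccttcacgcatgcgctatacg
Cox8a, chr19:7217607-7217726, minus strand: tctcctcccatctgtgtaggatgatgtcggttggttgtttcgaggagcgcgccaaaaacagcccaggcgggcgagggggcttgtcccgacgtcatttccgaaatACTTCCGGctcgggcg
Atp5g2, chr15:102671038-102671157, minus strand: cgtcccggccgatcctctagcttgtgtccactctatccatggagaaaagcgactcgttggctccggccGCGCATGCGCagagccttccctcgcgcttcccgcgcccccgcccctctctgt
Atp5k, chr5:108434390-108434509, minus strand: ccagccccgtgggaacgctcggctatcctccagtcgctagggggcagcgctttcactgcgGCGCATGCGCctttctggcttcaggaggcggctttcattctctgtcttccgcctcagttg
Atp5h, chr11:115419910-115420029, minus strand: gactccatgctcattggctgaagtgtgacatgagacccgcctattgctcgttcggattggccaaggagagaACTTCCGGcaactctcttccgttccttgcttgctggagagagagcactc
Atp5g3, chr2:73911317-73911436, minus strand: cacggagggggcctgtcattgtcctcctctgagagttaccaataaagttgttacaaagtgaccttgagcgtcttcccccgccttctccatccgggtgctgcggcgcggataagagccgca
Cox8b, chr7:140900437-140900556, minus strand: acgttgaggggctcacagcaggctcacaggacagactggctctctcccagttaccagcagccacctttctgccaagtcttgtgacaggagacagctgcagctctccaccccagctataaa

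Of the factors these motifs are named for, the 2 parts of GABP were called in opposite directions. Of 16 regulators of mitochondrial genes, 1 was called higher and 2 lower in Q175 against WT. Over all tested genes 3.34% were called higher and 7.1% lower. The list's median log2 difference was -0.10. Gabpa, the DNA-binding part of GABP, was higher at 0.27 ± 0.09 (adjusted p = 0.0488), and the partner Gabpb1 was lower at -0.23 ± 0.07 (adjusted p = 0.0368). Esrra, a nuclear receptor that acts on respiratory chain genes, was lower at -0.43 ± 0.12 (adjusted p = 0.0164). Nrf1 was at -0.05 ± 0.06, Yy1 at 0.09 ± 0.07 and the coactivator Ppargc1a at -0.08 ± 0.31, none of them called.

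Of the genes that work with the nuclear subunits, some were called lower and 0 were called higher in each of 3 lists. The 6 subunits of complexes III to V that the mitochondrial genome encodes summed to 46921 ± 10697 CPM in Q175 and 79722 ± 17843 CPM in WT, with 5 of 6 called lower and a median log2 difference of -0.81. Their ranges overlapped, at 34144 to 58312 CPM in Q175 and 49650 to 101483 CPM in WT. Among the 35 tested assembly factors 13 were called lower and 0 higher (median -0.33), led by Cox14, which acts in the synthesis of the largest complex IV subunit, at -0.59 ± 0.10 (adjusted p = 0.000543), and by Uqcc3, a complex III assembly factor, at -0.54 ± 0.11 (adjusted p = 0.00174). The copper chaperone Sco1 and the assembly factor Coa7 were above 0, at 0.11 ± 0.10 and 0.07 ± 0.09, and not called. Of 23 genes of the outer membrane, protein import and the citrate cycle, 9 were called lower and 0 higher (median -0.35), among them the import receptor Tomm22 at -0.41 ± 0.09 (adjusted p = 0.00227) and the phosphate carrier Slc25a3 at -0.43 ± 0.10 (adjusted p = 0.00341).

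Against Q20, the knock-in with a short repeat, Q175 had 37 members called lower and 0 higher, where 9.7% of all tested genes were called lower. By limma on log2(FPKM + 0.1) 28 members were called lower and 0 higher, with 2.73% of all genes lower and 15.3% higher. These were 3 of complex II, 10 of complex III, 10 of complex IV and 14 of complex V. The comparison shares its Q175 libraries with the one above. The members summed to 7604 ± 911 CPM in Q175 and 11391 ± 1907 CPM in Q20 (SD, n = 8 each), with 1 Q20 library, at 8364 CPM, inside the Q175 range. The median log2 difference was -0.64, and that of all tested genes was 0.014. For 16 members no Q175 library reached a Q20 library, which held for 3.56% of all tested genes.

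The smallest p-values were those of Atp5mpl, Uqcrh and Cox6c. Atp5mpl had 35.9, 40.1 and 46.2 CPM in Q175 libraries and 53.5, 61.6 and 101 CPM in Q20 libraries, without overlap, at a log2 difference of -0.75 ± 0.13 (adjusted p = 8.1e-05). Uqcrh had 111, 143 and 156 CPM in Q175 and 181, 217 and 298 CPM in Q20, again without overlap, at -0.74 ± 0.13 (adjusted p = 0.000146). Cox6c had 136, 166 and 180 CPM in Q175 and 223, 241 and 306 CPM in Q20, at -0.64 ± 0.12 (adjusted p = 0.000165). The members that were not called included Sdha, Atp5a1, Atp5b and Atp5s, together with Cox7a2l and the restricted isoforms of complex IV, of which Cox6a2 had the opposite sign (1.5 ± 1.40, adjusted p = 0.549). In the labels all Q175 and WT libraries form a single block of library numbers. It follows without a gap on the numbers of the other knock-in libraries, of which 1 of Q20 lies apart. The labels do not say whether these blocks were prepared or sequenced apart. Place in the numbering and genotype cannot be told apart against Q20. With the length trend removed 21 members were called lower, as were 5.49% of all genes. The mitochondrially encoded subunits had 5 of 6 called lower (median -0.59), assembly factors 20 of 35, the membrane, import and citrate cycle list 14 of 23, and the regulators 1 higher (Gabpa, 0.29 ± 0.09, adjusted p = 0.0191) and 0 lower.

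Markers of other cells also moved between Q175 and Q20. Of 10 stromal progenitor markers 3 were called higher, led by Pdgfra, a growth factor receptor (0.67 ± 0.19, adjusted p = 0.01), and the list summed to 1009 to 1095 CPM in Q175 females and 515 to 710 CPM in Q20 females, and to 818 to 898 CPM in Q175 males and 664 to 1036 CPM in Q20 males. Of 8 exocrine pancreas markers 2 were called higher, at summed levels of 6.97 to 217 CPM in Q175 and 9.29 to 17.2 CPM in Q20. In 3 further lists 1 gene each was called higher: Mrc1 of 12 macrophage markers, Prdm16 of 10 brown and beige fat markers and Gpx5 of 13 tested epididymis and testis markers. Gpx5 stood at 398 CPM in Q175 male 2, while no further Q175 library exceeded 0.367 CPM. Summed, the epididymis and testis markers ran from 513 to 2991 CPM across the Q175 males. Q20 males 2, 3 and 4 held 3.49, 0.388 and 1.35 CPM of them, whereas Q20 male 1 held 6721 CPM. Of 10 adipocyte markers Retn, the fat hormone resistin, was called lower (-0.88 ± 0.31, adjusted p = 0.0476). The list summed to 31452 to 34245 CPM in Q175 females and 36763 to 42626 CPM in Q20 females, without overlap. In males it summed to 20920 to 28470 CPM in Q175 and 42575 to 45689 CPM in Q20, apart from Q20 male 1 at 21669 CPM. The part of these cells in the difference from Q20 was not tested.

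At shorter repeats no member was called lower against Q20. Over the genotypes WT, Q20, Q80, Q92, Q111, Q140 and Q175 the summed level of the members was 10519 ± 1630, 11391 ± 1907, 10169 ± 2166, 9803 ± 3028, 9503 ± 1410, 10673 ± 2921 and 7604 ± 911 CPM (SD). Neighbours in this series overlap, and Q175 alone lies wholly below the WT range. Against Q20, edgeR called 0 members in Q80, 0 in Q111 and 0 in Q140, and DESeq2 and limma on FPKM also called 0. These comparisons called 0.0% of all tested genes, with 1681, 1466 and 2177 genes at an unadjusted p under 0.05 and 173, 158 and 502 genes called by DESeq2. The median log2 differences of the members were -0.16, -0.24 and -0.04. Q20 against WT also had 0 members called by edgeR, DESeq2 and limma, with a median of 0.08, where edgeR called 0.753% of all genes and 2150 genes had an unadjusted p under 0.05.

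**Figure D3:**
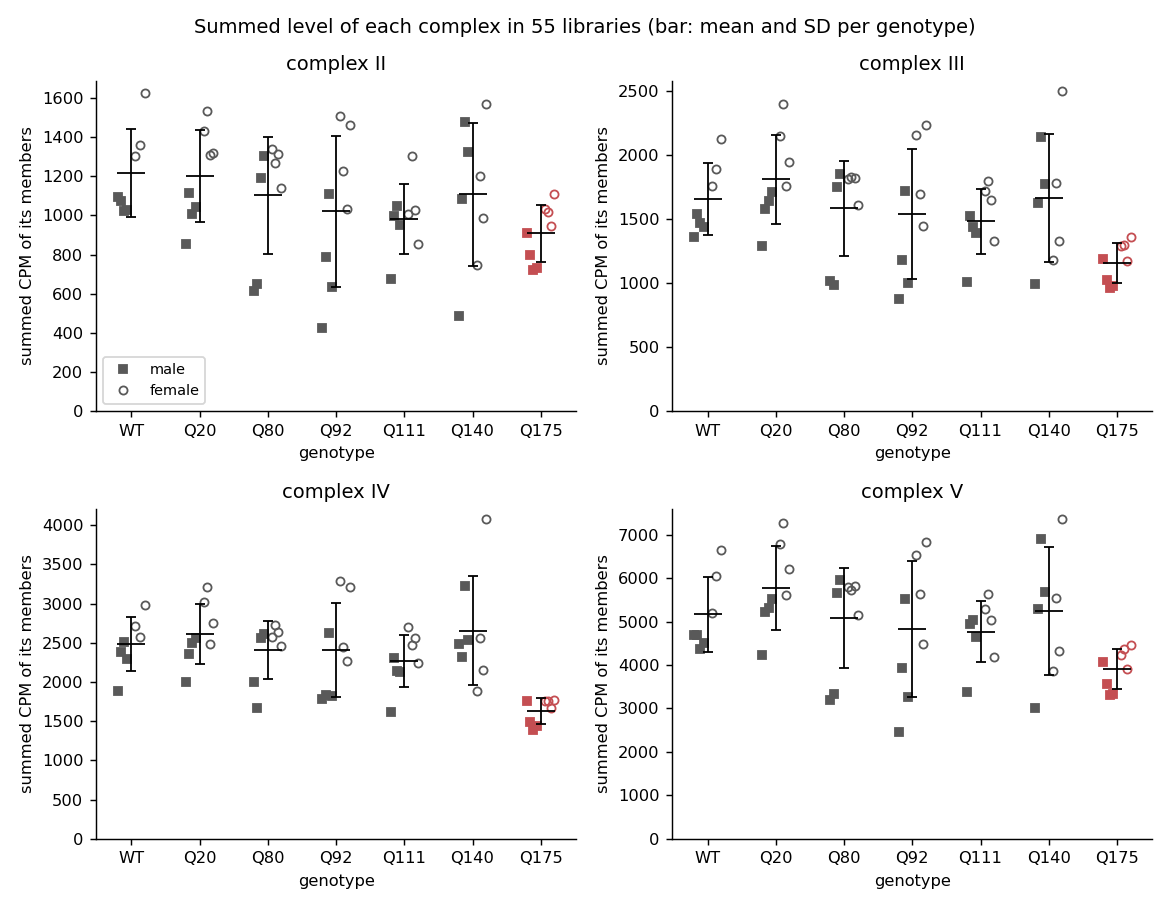
Summed CPM of the members of each complex (y axis, from 0) in the 55 libraries by genotype (x axis), with squares for males, circles for females and bars for the mean and SD; Q175 is in red. The Q175 means are 908, 1159, 1630 and 3907 CPM for complexes II, III, IV and V, and the WT means 1216, 1653, 2479 and 5171 CPM.

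Across the 6 knock-in genotypes the slope on repeat length was called negative for 29 members, 6 of complex III, 9 of complex IV, 14 of complex V and 0 of complex II, and positive for 0, where 5.66% of all tested genes had a negative slope called. By limma on log2(FPKM + 0.1) 21 members were called negative and 0 positive, with 1.27% of all genes negative and 9.38% positive. The median slope was -0.32 on the log2 scale per 100 repeats. The smallest p-values belonged to Atp5mpl (-0.35 ± 0.08, adjusted p = 0.00333), Cox6c (-0.31 ± 0.07, adjusted p = 0.00399) and Uqcr10 (-0.40 ± 0.09, adjusted p = 0.00424). Over Q20 to Q140, edgeR called 0 members, and 1 of all 21113 genes, with 1606 genes at an unadjusted p under 0.05. Q175 is alone among the knock-in genotypes in its block of library numbers, so for the slope too the block and that genotype cannot be told apart. With the length trend removed 0 members were called, where 1.67% of all genes had a negative slope called. Without Q20 female 2 the count was 19, and 3.26% of all genes had a negative slope called. For Uqcrh the means over Q20, Q80, Q92, Q111, Q140 and Q175 were 230, 215, 212, 205, 240 and 137 CPM, with SDs of 42.8, 42.1, 57.7, 42.1, 86.7 and 17.7 CPM. Its first 5 means lie within 1 SD of each other, and Q175 stands below them.

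In Q92 against Q20 the 2 called members were isoforms of other tissues, and both were higher, where 5.91% of all tested genes were called higher. Cox6a2, the muscle isoform, was at 37.2, 8.17 and 23.0 CPM in the libraries Q92 female 1, Q92 female 2 and Q92 male 1, at 0.0483 to 0.174 CPM in the other 5 Q92 libraries, and at 0 to 0.185 CPM in the 8 Q20 libraries (log2 difference 6.19 ± 1.55, adjusted p = 0.00984). The same 3 libraries held 9654, 2744 and 7141 CPM of 12 skeletal muscle markers, and the other 5 held 17.4 to 73.3 CPM. Cox6b2, the testis isoform, was at 47.7 and 21.9 CPM in Q92 male 1 and Q92 male 4, at 1.39 to 5.46 CPM in the other Q92 libraries, and at 1.94 to 3.94 CPM in Q20 (1.30 ± 0.34, adjusted p = 0.0144). These males held 18132 and 8578 CPM of epididymis and testis markers. Without Q92 male 1 neither gene was called, and 0.934% of all genes were called higher. Of the 12 muscle markers 11 were called higher in Q92 against Q20.

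Over all 55 libraries Cox6a2 was above 1 CPM in 9 libraries, each with at least 325 CPM of muscle markers. Cox8c was above 1 CPM in 5 male libraries, each with at least 157 CPM of epididymis and testis markers, and its highest level, 51.4 CPM in Q92 male 1, came with the highest Cox7b2, 25.3 CPM. Other libraries with those markers held little of it: Q140 male 1, with 27430 CPM of epididymis and testis markers, had 0.898 CPM. The part of muscle, epididymis or testis RNA in these values was not tested.

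**Figure D4:**
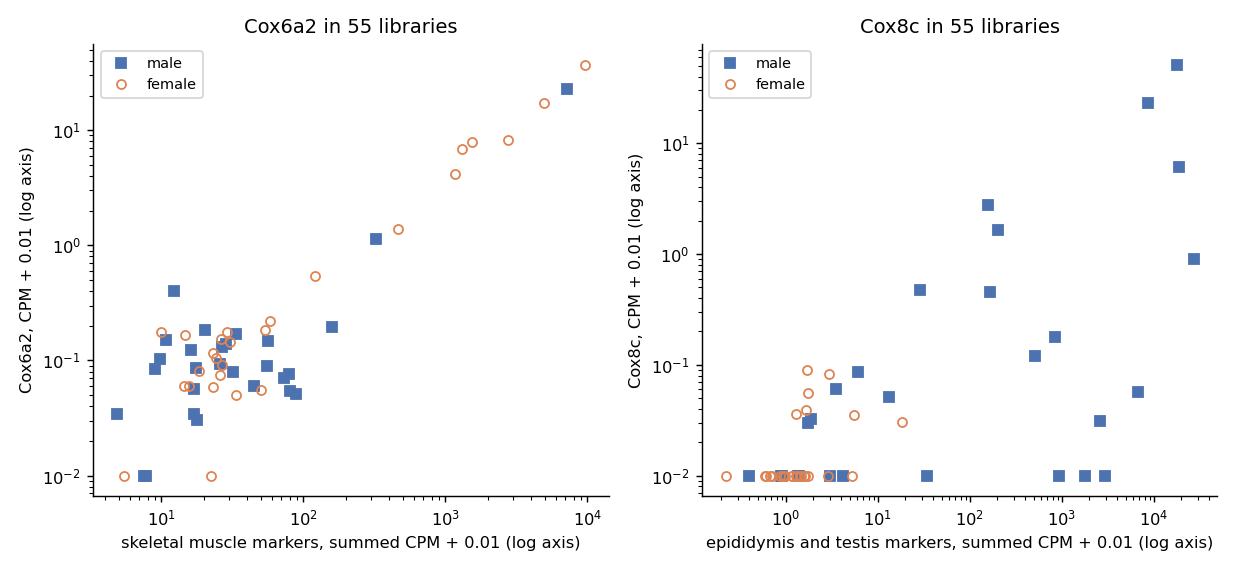
Cox6a2 against the summed skeletal muscle markers (left) and Cox8c against the summed epididymis and testis markers (right) in 55 libraries, on log axes in CPM + 0.01, with squares for males and circles for females. Cox6a2 exceeds 1 CPM only where muscle markers reach 325 CPM or more, and Cox8c exceeds 1 CPM in male libraries alone.

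Between the sexes, members were lower in males. edgeR called 41 members lower in males, where 18.3% of all tested genes were called lower and 27.9% higher. By limma on log2(FPKM + 0.1) 33 members were called lower, with 10.3% of all genes lower and 42.9% higher. Cox7b2 and Cox8c, which passed the filter through male libraries alone, had to be higher in males, and their levels are given with no test. All 4 members of complex II and all 10 of complex III were called lower, with 12 of 18 in complex IV and 15 of 17 in complex V. The members summed to 8925 ± 2040 CPM in males (SD, n = 28) and 10995 ± 2111 CPM in females (SD, n = 27), with wide overlap, and 0 members had every male library below every female library, which held for 0.185% of all tested genes once the 2 Q140 libraries were left out. The median log2 difference was -0.30, and that of all tested genes was 0.065.

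Cox7b, a small complex IV subunit whose gene lies on the X chromosome, had the smallest p. It had 66.9, 113 and 186 CPM in males and 91.6, 148 and 243 CPM in females (lowest, median and highest). The log2 difference was -0.46 ± 0.08 (adjusted p = 7e-06). Whether its place on the X chromosome bears on this difference was not tested. Uqcrh had 111, 183 and 305 CPM in males and 142, 245 and 426 CPM in females, at -0.40 ± 0.07 (adjusted p = 1.4e-05). Cox7c had 93.8, 139 and 220 CPM in males and 113, 182 and 316 CPM in females, at -0.39 ± 0.07 (adjusted p = 2.8e-05). In all 3 genes the ranges overlapped over most of their width. In complex II the 4 members fell by 0.37 (Sdhc) to 0.44 (Sdhd) on the log2 scale. The members not called were Cox4i2, Cox6b2, Cox7a2l, Cox8a, Atp5g1 and Atp5h.

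Cox6a2, Cox8b and Cox7a1 had the widest fitted differences among the members lower in males. Cox8b was at 0 in no library, at a median of 26.1 FPKM, and Cox6a2 had a median of 0.147 FPKM. Which cells these isoforms came from was not tested. Cox8b averaged 6.78 ± 5.54 CPM in males and 15.6 ± 10.1 CPM in females (log2 difference -1.29 ± 0.28, adjusted p = 0.000278). Cox7a1 averaged 1.78 ± 0.73 CPM in males and 2.98 ± 2.45 CPM in females (-0.66 ± 0.19, adjusted p = 0.00342). Cox6a2 averaged 0.947 ± 4.32 CPM in males and 3.16 ± 7.87 CPM in females (-2.83 ± 0.74, adjusted p = 0.00184). Its medians were 0.0781 and 0.145 CPM. It was above the filter level of 0.238 CPM in 3 male and 8 female libraries. The 12 muscle markers were all called lower in males as well, and 6 of 10 brown and beige fat markers. The muscle markers summed to 4.85 to 7141 CPM in male libraries and 5.41 to 9654 CPM in female libraries, and the brown and beige fat markers to 16.2 to 124 CPM in males and 14.4 to 171 CPM in females. The testis isoform Cox8c was at 3.12 ± 10.4 CPM in males and 0.0111 ± 0.0223 CPM in females, and Cox7b2 was at 1.44 ± 5.05 CPM in males and 0.0036 ± 0.0112 CPM in females. Their SDs exceed their means, since a few male libraries carry most of the counts.

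**Figure D5:**
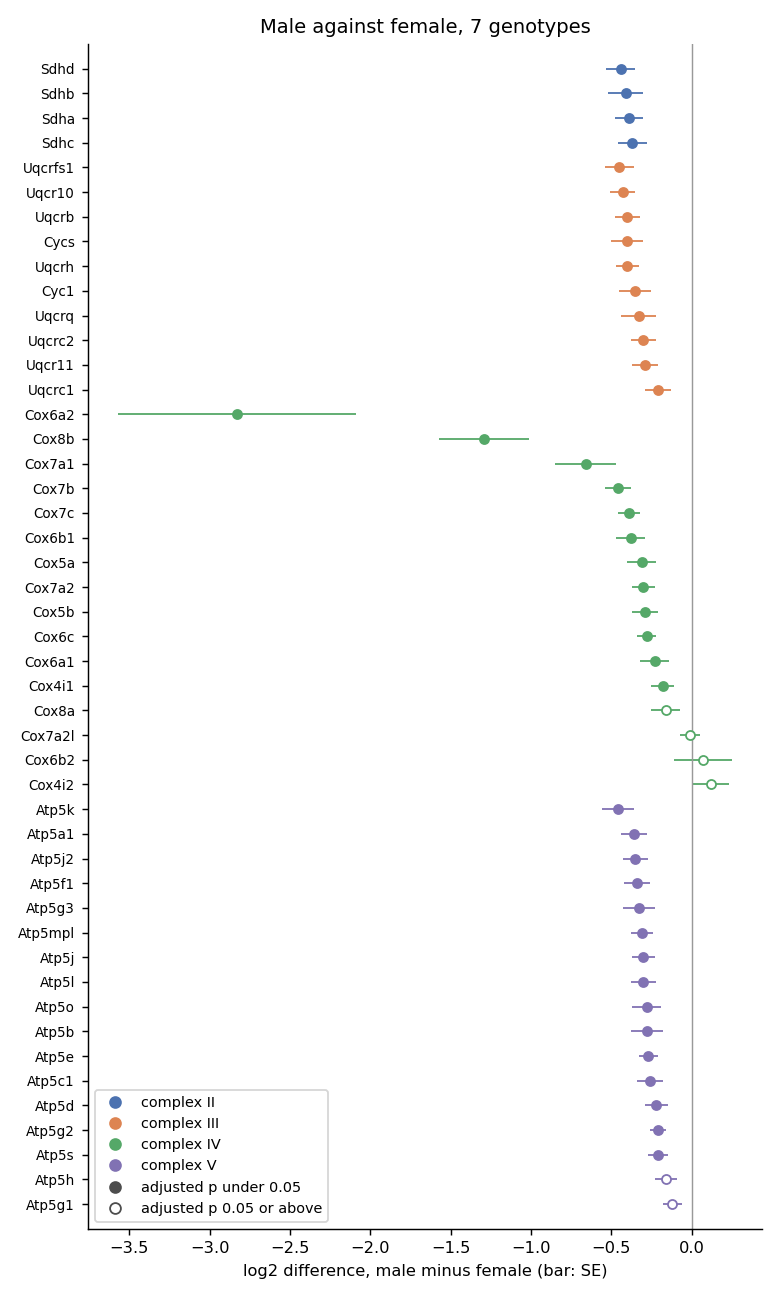
Log2 difference, male minus female (x axis), of 47 members (y axis, coloured by complex), with bars for the SE and filled points for an adjusted p under 0.05; Cox7b2 and Cox8c are not drawn. Most filled points lie between -0.18 and -0.46, and Cox6a2, Cox8b and Cox7a1 lie further left.

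Within each genotype most members were lower in males. For Q140 these values leave out Q140 female 1 and Q140 male 4, whose sex-linked genes contradict their labels. Among the 46 members above 1 CPM in both sexes, males were lower for 45 of the members in WT animals and for 43 in both Q20 and Q80. They were lower for 45 at Q111, 41 at Q140 and 44 at Q175, and for 45 of 47 at Q92. The median log2 ratio of male to female means was -0.38 in WT animals and -0.33 in both Q20 and Q80. It was -0.63 at Q92, -0.26 at both Q111 and Q140, and -0.24 at Q175. With all Q140 libraries as labelled, 33 of 46 members were lower in Q140 males, the median was -0.10, and the members summed to 10584 ± 2810 CPM in Q140 males and 10762 ± 3462 CPM in Q140 females (SD, n = 4 each). Without the 14 male libraries high in epididymis and testis markers, an additive fit called 25 members lower and 0 higher. Of these, 22 were also called with those libraries, and 13.4% of all genes were called lower and 13.8% higher. This fit kept Q140 female 1 and Q140 male 4 as labelled, and Q140 male 4 was the only library labelled male left in that genotype. Of the 10 adipocyte markers 3 were called lower in males, and the list summed to 5012 to 45689 CPM in male libraries and 21558 to 53300 CPM in female libraries. All 6 erythroid markers were called higher, at 277 to 2452 CPM in males and 381 to 1005 CPM in females. The part of these cell types in the sex difference was not tested. The 6 mitochondrially encoded subunits were all called lower in males, at 57536 ± 18292 CPM in males and 81003 ± 20454 CPM in females, as were 23 of 35 assembly factors, 16 of 23 genes of the membrane, import and citrate cycle list and 6 of 16 regulators, led by Tfb2m, a mitochondrial transcription factor (-0.34 ± 0.06, adjusted p = 1.8e-05).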

How the data were processed

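Per the deposited tables, the authors gave unscaled estimated counts per gene and FPKM values scaled for depth and transcript length. Both hold 43432 Ensembl genes and 55 libraries. Of the nonzero deposited counts 33.72% were not whole, and all were rounded. CASAVA 1.8.2 is named in the submitters' processing notes. For the aligner, counting program, build and annotation the sources used here give none. Symbols were matched for 42548 identifiers, and transcript lengths are those implied by the deposited counts and FPKM values.

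The test was the robust quasi-likelihood F test of edgeR 4.0.16 (R 4.3.3), with TMM scaling, a mean for each of the 14 groups of genotype and sex, and filterByExpr over those groups, which kept 21113 genes. Genotype differences average the female and male differences, the slope is per 100 repeats over the 6 knock-in genotypes, and the sex difference averages 7 genotypes. Adjusted p-values are Benjamini-Hochberg over all genes tested. Levels are CPM as mean ± SD, and log2 differences are given ± SE. Total counts were 35094442 to 51363637 per library, with a median of 42009365; without molecular identifiers, depth bounds counting error only. The fit was tested on simulated counts.

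The members and the lists of other genes were chosen with earlier results of these data known. Named genes are, per complex, the 3 members with the smallest p in Q175 against WT, the isoform families, up to 3 members per direction with the smallest p among those called in each other comparison, members of opposite sign, the most and least abundant members, and list genes with the smallest p. No 2 libraries of a group agreed within counting error. Alternatives were RLE scaling, no filter, DESeq2 1.42.0, limma 3.58.1 on log2(FPKM + 0.1) or log2(FPKM + 1), a replicate block, the lane code as a factor, only the genotypes compared, libraries left out, and removal of the length trend. That trend was fitted in each library, as log2 CPM relative to the gene's mean over transcript length, and removed before the test. Female libraries alone, and an additive design with all libraries, were chosen after seeing the data.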

Additional observations from a re-analysis of the deposited data

Results flagged for a closer look

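In groups of 4 libraries, 33 of 397 checked sets (8.31%) held a library far from the other 3, where chance gives about 1 in 20. The values are in CPM, and no explanation of them was tested.

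Cox6a2, the muscle isoform, stood far above the others in its group at 4.16 CPM in Q175 female 4, 6.91 in Q140 female 2, 1.12 in Q140 male 2, 7.87 in Q111 female 2, 23.0 in Q92 male 1 and 17.3 in Q80 female 2. These libraries held 1159, 1310, 325, 1527, 7141 and 4936 CPM of muscle markers. The testis isoforms were flagged mostly at levels near 0. Cox8c was at 0.111 CPM in Q175 male 2, 0.0455 in Q111 female 2, 0.0409 in Q111 male 2, 0.0262 in Q20 female 1 and 0.46 in WT male 2, and Cox7b2 was at 0.037 CPM in Q175 male 2, 0.0226 in Q111 female 3, 0.0818 in Q111 male 2 and 0.0691 in WT male 2.

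Among the Q175 males, replicate 1 was high, with Uqcrq at 92.9 CPM, Cox6a1 at 163 CPM and Cox8b at 5.7 CPM. Among the WT males, replicate 1 was low, with Uqcrq at 91.3 CPM and Cox6c at 176 CPM. Q175 female 3 was low in complex IV, at 1670 CPM summed. Q111 male 1 was low in Sdhd at 114 CPM, in Uqcrh at 132 CPM and in Cox6b1 at 168 CPM. Q80 female 4 was low in complex III at 1608 CPM, complex V at 5145 CPM, Sdhd at 191 CPM and Cox7a2 at 156 CPM, and Q80 male 2 was low in Cox6c at 198 CPM. High values were 2622 CPM for complex IV in Q92 male 3, 136 CPM for Uqcr10 in Q80 female 2, 218 CPM for Cox7a2l in Q111 female 4 and 138 CPM for Cox7b in Q20 male 4.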

How the results depend on the processing

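Counts of members called changed as follows. In Q175 against WT the count fell to 8 once the lane code entered the model, and was 42 with only the genotypes compared and 15 with the length trend removed, and 18 to 27 with 1 library left out (18 without WT female 3). In Q175 against Q20 it was 21 with the length trend removed and 32 to 38 with 1 library left out. In females alone it was 0 without the filter, with the lane factor and with the length trend removed. With 1 library left out it was 0 to 1. It was 10 by DESeq2, where 564 of all genes were called, higher or lower. It was 4 on log2(FPKM + 0.1) and 2 on log2(FPKM + 1), with 154 and 124 of all genes called. With only the genotypes compared it was 39, and 1616 of all genes were called. With female libraries alone it was 24, and 1322 of all genes were called. In males it was 0 without the filter, on unfiltered FPKM, with the lane factor and with the length trend removed, 1 by RLE, on log2(FPKM + 0.1) and without Q140 female 1 and male 4, 8 by DESeq2, 35 with only the genotypes compared and 0 to 8 with 1 library left out. In Q92 against Q20 the count of members was 0 with the lane factor and with only the genotypes compared. Without libraries high in epididymis and testis markers it was also 0. It was 4 in the additive design with all libraries, where 2897 of all genes were called. With 1 library left out it was 0 to 3. The slope had 19 members called on unfiltered FPKM, where 1833 of all genes were called, and 0 with the length trend removed. It had 0 over Q20 to Q140 and 19 to 34 with 1 library left out. Male against female, with Cox7b2 and Cox8c counted, had 25 without the 14 libraries with those markers and 41 to 45 with 1 library left out. The cause was not tested beyond what each setting changes. Signs turned for Cox6b2 in Q92 against Q20, at -0.37 in the additive fit without the 14 libraries with those markers. They also turned, over Q20 to Q140, for the slopes of Atp5g2 (0.04) and Atp5mpl (0.01).

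With the replicate number as a block, 29 members were called in Q175 against WT and 37 in Q175 against Q20. With it 31 were called in the slope and 44 in male against female. The counts over all genes with this block are not given here. The replicate numbers are shared labels only. Deviations of same-numbered libraries correlated above 0.1 in 1 of 7 pairs of Q175 and of Q20 against WT. They did so in 1 to 4 of 8 pairs of each genotype against Q20, over a range of -0.46 to 0.64. On log2(FPKM + 0.1) the median of all genes moved to 0.169 in Q175 against WT and 0.163 in male against female, and 20 and 33 members were called lower.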
